A study of Mus musculus with 12 samples.

Results

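Mitochondrial respiratory chain genes were examined in mouse peritoneal macrophages with and without lipopolysaccharide (LPS) and with and without Nfkbiz. Members are the genes whose single annotated symbol begins with Nduf, Uqcr, Cox4, Cox5, Cox6, Cox7, Cox8 or Atp5, or equals Sdha, Sdhb, Sdhc, Sdhd or Cycs. They come to 90 of 19938 tested genes, read from 117 probe sets, and the probe set with the highest mean was used for each gene. By complex there were 41 members for complex I, 4 for complex II, 8 for complex III, 1 for cytochrome c, 19 for complex IV and 17 for complex V. All 90 were tested without a filter on low values, and 81 of them were brighter than the median tested gene.

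The study has 12 arrays in 4 groups of 3, all of cells flushed from the peritoneum of female mice and plated before treatment. Nfkbiz-/- cells (KO) given 1 µg/ml LPS for 4 h were set against untreated KO cells, and C57Bl/6 wild-type cells (WT) given the same dose for the same time were set against untreated WT cells. The labels give no age, no sort, no description of the deleted stretch and no statement that replicates came from separate mice, so each p-value covers just the spread among these arrays, part or all of which may be technical. LPS is a bacterial cell-wall component sensed through TLR4, and Nfkbiz encodes IκBζ, a nuclear IκB protein that LPS induces.

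The respiratory chain sits in the inner mitochondrial membrane. Complex I takes electrons from NADH and complex II takes them from succinate, complex III passes them through cytochrome c to complex IV, which reduces oxygen, and complex V uses the resulting proton gradient to make ATP. Macrophages activated by LPS are known for a shift from oxidative metabolism towards glycolysis, with succinate oxidation by complex II among the steps studied. Most subunits are encoded in the nucleus, and their promoters are known to bind NRF1 and the ETS-family factor GABP, among others.

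Nfkbiz read 1568, 1335 and 1634 on the LPS-treated KO arrays, against 266.9, 285.6 and 274.4 on the untreated KO arrays. In WT cells, Nfkbiz read 3371, 3786 and 3079 with LPS, against 462.6, 430.7 and 406.3 untreated. KO arrays were below WT arrays of the same treatment without overlap, and the position of this probe relative to the deletion was not given in the sources used here. All 8 macrophage markers were measured, and their summed intensity was 52900 to 55050 in LPS-treated KO cells and 59880 to 61870 in untreated KO cells. In WT it was 53030 to 53280 with LPS and 59870 to 61530 untreated. Single macrophage markers did differ between genotypes. Between KO and WT cells with LPS, 1 of 8 was higher and 1 lower at a limma adjusted p under 0.05, with differences from -0.79 to 1.29. Of all tested genes, 3.28% were called higher and 4.87% lower there. With each array centred on its 75th percentile, the LPS difference of Mertk was 0.86 in KO and -0.50 in WT. Both were called by limma (adjusted p = 1.38e-04 and 0.00729). That of Gata6 was -0.46 in KO (adjusted p = 0.0681, not called) and 0.65 in WT (adjusted p = 0.0248). For the LPS response of KO minus that of WT, fitted as deposited, 1 of 8 macrophage markers was called higher. The lowest limma adjusted p was 0.0053, and 0.301% of all genes were called higher there. The sum of the 5 mast cell markers differed between KO arrays, at 457.8 to 2088 with LPS and 732.3 to 2345 untreated, against 488.4 to 770.4 and 569.3 to 765.4 in WT. Summed mesothelial markers (4 of 4 measured) were higher with LPS without overlap, at 420.0 to 451.1 in LPS-treated and 352.1 to 388.8 in untreated KO cells, and 427.6 to 440.8 in LPS-treated and 371.2 to 413.2 in untreated WT cells. The median tested gene alone read 137 to 150, and just 2 of the 4 markers were called higher in KO and 0 in WT. Summed T cell markers (5 of 5) were 523.9 to 564.5 in KO and 470.5 to 482.6 in WT with LPS, without overlap. Untreated, they were 487.4 to 530.5 in KO and 425.8 to 519.5 in WT. Summed neutrophil markers (5 of 5) were 656.0 to 803.4 with LPS and 548.2 to 635.9 untreated in KO, and 657.9 to 702.0 with LPS and 469.8 to 683.0 untreated in WT, where the groups overlapped. The part of these marker lists in the results below was not tested. In such bulk samples, fewer cells of a type and less RNA per cell cannot be told apart.

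Promoter stretches are shown for 4 of the 14 members that fell with LPS in both genotypes under every array scaling tried (Sdha, Sdhd, Ndufa8 and Atp5g2). Cycs and Uqcrfs1, which rose in KO cells, are shown beside them. All were chosen by hand after the values were seen, without a set rule. Each line holds the 180 bases before the annotated start, read 5′ to 3′ on the gene's strand, from RefSeq on build GRCm38.p6. Capitals mark matches on either strand to the core of NRF1 (GCGCANGCG), GABP (CCGGAAG) or CREB (TGACGTCA).
Sdha, chr13:74350241-74350420, minus strand: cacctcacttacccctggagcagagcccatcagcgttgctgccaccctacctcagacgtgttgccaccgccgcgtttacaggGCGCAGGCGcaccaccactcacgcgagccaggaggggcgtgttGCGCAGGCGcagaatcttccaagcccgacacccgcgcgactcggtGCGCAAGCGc
Sdhd, chr9:50603850-50604029, minus strand: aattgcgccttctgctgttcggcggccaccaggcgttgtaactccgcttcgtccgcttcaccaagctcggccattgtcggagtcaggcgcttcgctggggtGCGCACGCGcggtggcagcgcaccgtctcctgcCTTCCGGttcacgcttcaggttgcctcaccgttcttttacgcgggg
Ndufa8, chr2:36049339-36049518, minus strand: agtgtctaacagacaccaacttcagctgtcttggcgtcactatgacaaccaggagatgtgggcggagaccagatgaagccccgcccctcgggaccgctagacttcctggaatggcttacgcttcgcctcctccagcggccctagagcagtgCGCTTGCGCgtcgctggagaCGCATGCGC
Atp5g2, chr15:102671048-102671227, minus strand: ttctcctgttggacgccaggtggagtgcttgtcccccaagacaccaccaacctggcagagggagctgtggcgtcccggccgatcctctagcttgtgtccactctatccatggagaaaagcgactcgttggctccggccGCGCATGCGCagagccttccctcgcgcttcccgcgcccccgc
Cycs, chr6:50566570-50566749, minus strand: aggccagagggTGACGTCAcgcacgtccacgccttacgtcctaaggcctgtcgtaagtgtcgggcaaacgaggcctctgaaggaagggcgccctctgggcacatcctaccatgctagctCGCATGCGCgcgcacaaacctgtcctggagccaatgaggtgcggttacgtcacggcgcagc
Uqcrfs1, chr13:30545317-30545496, minus strand: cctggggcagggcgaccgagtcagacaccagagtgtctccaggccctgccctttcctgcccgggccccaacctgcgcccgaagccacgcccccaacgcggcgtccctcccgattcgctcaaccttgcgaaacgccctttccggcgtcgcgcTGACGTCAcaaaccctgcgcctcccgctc

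The Sdha stretch holds 3 NRF1 cores, the Ndufa8 stretch 2, and the Sdhd stretch 1 beside a GABP core. In Atp5g2, matches on both strands overlap by all but their end bases and form 1 palindrome. Cycs has an NRF1 and a CREB core, and Uqcrfs1 has a CREB core. RefSeq promoters, reaching from 250 bases before the start to 50 after it, were matched for 74 of the 90 members. The NRF1 core was present in 29.7% of the 74, against 10.5% of the 15563 tested genes with such a promoter. For the GABP core the shares were 24.3% of members and 13.6% of all, and for the YY1 core (AAGATGGC) 13.5% and 3.77%. The CREB core was in 6.76% of members and 2.72% of all, and the ERRalpha core (TCAAGGTCA) in 2.7% and 0.347%. Among the 33 matched members that fell in both genotypes, 12 held the NRF1 core (36.4%), against 10 of the 41 other matched members (24.4%). In the same split the GABP core was in 30.3% against 19.5%, the YY1 core in 12.1% against 14.6%, the CREB core in 3.03% against 9.76% and the ERRalpha core in 3.03% against 2.44%. Such matches describe letters in these windows and do not show binding. The stretches shown do not stand for the members at large. Each falling gene shown holds an NRF1 core, against 36.4% of the 33 matched members that fell in both genotypes. Both rising genes shown hold a CREB core, against 6.76% of the 74 matched members.

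Most respiratory chain transcripts were lower in LPS-treated than in untreated KO macrophages: 31 of 41 for complex I, 4 of 4 for complex II, 4 of 8 for complex III, 6 of 19 for complex IV and 11 of 17 for complex V. With a call at a limma adjusted p under 0.05, 56 of 90 members (62.2%) were lower and 4 were higher in LPS-treated than in untreated KO cells, while 30 were not called. Over all tested genes, 23.8% were called lower and 21.9% higher. Genes brighter than the median had 41.1% called lower. The median log2 difference of the members was -0.31, against 0.07 over all genes and -0.17 over the brighter-than-median genes.

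In WT cells 43 of 90 members (47.8%) were lower with LPS and 0 were higher, while 47 were not called. Over all tested genes 18.5% were called lower and 9.53% higher, and the brighter-than-median genes had 32% called lower. An unadjusted p under 0.05 was reached by 54 members in WT. The median difference was -0.25 for the members, 0.04 over all genes and -0.11 over the brighter-than-median genes. Of the calls to the lower side, 37 were shared by both genotypes, 19 were made in KO only and 6 in WT only. Whether a response differs between genotypes is a matter of the interaction test, given further on.

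**Figure D1:**
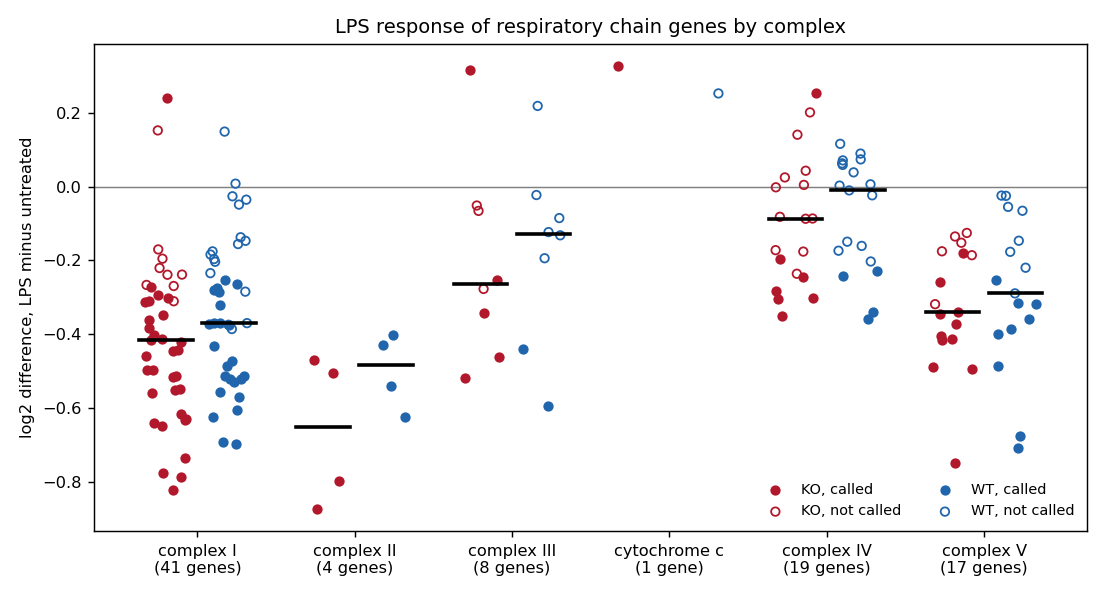
Each point is 1 member, the vertical axis is the log2 difference in intensity between LPS-treated and untreated cells, red is KO and blue is WT, filled points were called at a limma adjusted p under 0.05, and black bars are medians of the complex. Complex II lies lowest, at medians of -0.65 in KO and -0.48 in WT, while complex IV is centred near 0, at -0.09 in KO and -0.01 in WT. Within complex IV, the 10 broadly expressed subunits had medians of -0.24 in KO and -0.15 in WT. Its 8 tissue isoforms and paralogs had medians of 0.03 and 0.07.

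Complex II, succinate dehydrogenase, had the deepest median, with 4 of 4 members lower in each genotype. Sdhb, its iron-sulfur subunit, read 855.3, 838.0 and 770.4 in LPS-treated KO cells, against 1562, 1607 and 1354 in untreated KO cells. In WT cells, Sdhb read 724.0, 735.7 and 755.9 with LPS, against 1259, 1145 and 1021 untreated. No LPS-treated array reached an untreated array of its genotype, and the log2 difference was -0.87 in KO (SE 0.09, adjusted p = 1.78e-05) and -0.62 in WT (adjusted p = 3.19e-04). Sdhd, a membrane anchor, read 945.2, 814.0 and 982.0 in LPS-treated KO cells, against 1697, 1549 and 1512 in untreated KO cells. Its WT values were 1096, 960.9 and 1169 with LPS and 1504, 1718 and 1462 untreated. The groups did not overlap in either genotype, with differences of -0.80 in KO (SE 0.10) and -0.54 in WT (SE 0.10).

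Sdha, the flavoprotein that oxidises succinate, read 1404, 1501 and 1316 in LPS-treated KO cells, against 2037, 2125 and 1831 in untreated KO cells. In WT cells, Sdha read 1457, 1325 and 1532 with LPS, against 2058, 1935 and 1813 untreated. Its groups stood apart in both genotypes, by -0.51 in KO (SE 0.09, adjusted p = 6.70e-04) and -0.43 in WT (adjusted p = 0.003). Sdhc, the other anchor, read 1682, 1707 and 1531 in LPS-treated KO cells, against 2214, 2370.1 and 2224 in untreated KO cells. Its WT values were 1649, 1565 and 1595 with LPS and 2519, 2059 and 1826 untreated. The untreated WT arrays spread more widely than the others, and the differences were -0.47 in KO and -0.40 in WT (SE 0.10 each). All 4 subunits were called in both genotypes whichever of the 12 arrays was omitted.

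**Figure D2:**
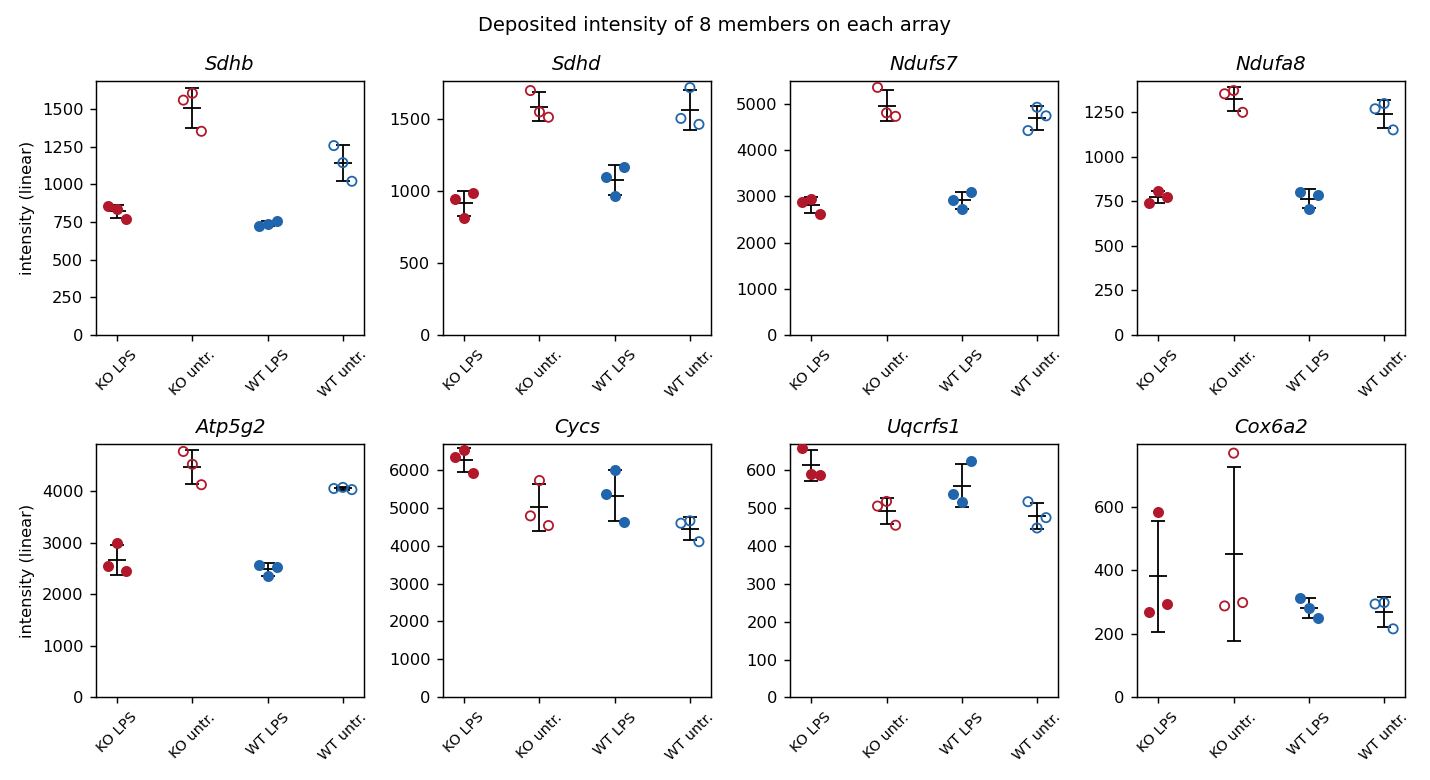
Deposited linear intensity of 8 members on each of the 12 arrays, from left to right LPS-treated KO, untreated KO, LPS-treated WT and untreated WT, with bars at the mean and ± 1 SD of 3 arrays. Sdhb, Sdhd, Ndufs7, Ndufa8 and Atp5g2 are lower with LPS without overlap in both genotypes, Cycs and Uqcrfs1 are higher with LPS in KO, and Cox6a2 is high on 1 KO array of each treatment.

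Complex I, the NADH dehydrogenase, had 31 of 41 members lower and 1 higher in KO and 24 of 41 lower and 0 higher in WT, with medians of -0.41 and -0.37. All 6 nuclear core subunits measured were lower in KO and 4 of 6 in WT, at medians of -0.53 and -0.52. Ndufs7, which carries an iron-sulfur cluster near the quinone site, read 2884, 2955 and 2611 in LPS-treated KO cells, against 5368, 4815 and 4739 in untreated KO cells. In WT cells, Ndufs7 read 2928, 2720.0 and 3095 with LPS, against 4430.3, 4937 and 4751 untreated. This is a difference of -0.82 in KO (SE 0.08, adjusted p = 1.31e-05) and -0.69 in WT (SE 0.08, adjusted p = 6.8e-05), with no overlap. The other core subunits were Ndufs3 (-0.63 in KO, -0.52 in WT), Ndufs8 (-0.55, -0.57) and Ndufv2 (-0.51, -0.51), called in both genotypes. Ndufv1 (-0.46) and Ndufs1 (-0.35), which bind NADH or carry iron-sulfur clusters, were called in KO, and their WT differences of -0.16 and -0.20 were not called.

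Accessory subunits of complex I, which surround the core and stabilise it, were lower for 19 of 28 in KO and 17 of 28 in WT. Ndufa8 read 741.4, 806.9 and 774.5 in LPS-treated KO cells, against 1354, 1372 and 1249.9 in untreated KO cells. In WT cells, Ndufa8 read 802.8, 703.7 and 787.9 with LPS, against 1269.7, 1299 and 1151 untreated. Both genotypes show 3 low and 3 high arrays for this subunit, with differences of -0.78 in KO and -0.70 in WT (SE 0.08 each, adjusted p = 1.39e-05 and 4.61e-05). Ndufb11, a membrane-arm subunit, differed by -0.74 in KO and -0.61 in WT, and its other probe set gave -0.71 and -0.68. Ndufab1, the mitochondrial acyl carrier protein, differed by -0.64 in KO and -0.29 in WT, both called. Its WT call reached an adjusted p of 0.0596 without untreated WT replicate 1 and was made under 2 of the 4 scalings described further on.

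The single complex I member called higher was Ndufs4, an accessory subunit beside the NADH-binding part, named after its values were seen. It read 1950.0, 2203 and 2336 in LPS-treated KO cells, against 1765, 1967 and 1751 in untreated KO cells. In WT cells, Ndufs4 read 2059, 1957 and 1941 with LPS, against 1879, 1676 and 1821 untreated. The KO groups overlapped and the WT groups did not, with differences of 0.24 in KO (SE 0.08, adjusted p = 0.0349) and 0.15 in WT (adjusted p = 0.219). Of the 12 fits that each omitted an array, 8 made its KO call, and the adjusted p reached 0.126 without LPS-treated KO replicate 3.

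Of the 7 Nduf assembly factors, which help build complex I and are not part of it, 6 were lower in KO and 3 in WT. Ndufaf1 read 224.0, 215.6 and 228.2 in LPS-treated KO cells, against 363.0, 360.1 and 432.6 in untreated KO cells. Its WT arrays read 251.9, 232.4 and 352.1 with LPS and 333.8, 345.4 and 389.2 untreated. The groups stood apart in KO, where the difference was -0.79 (SE 0.14, adjusted p = 7.23e-04), and overlapped in WT through replicate 3 with LPS (-0.37, adjusted p = 0.0643). Ndufaf4 read 90.3, 93.3 and 86.7 in LPS-treated KO cells, against 140.4, 151.8 and 131.8 in untreated KO cells. In WT cells, Ndufaf4 read 104.1, 99.9 and 114.7 with LPS, against 136.8, 123.3 and 126.4 untreated. Ndufaf4 was called in both, at -0.65 in KO and -0.28 in WT, the WT call holding in 9 of the 12 fits without 1 array (adjusted p up to 0.0858, without LPS-treated WT replicate 2). Ndufaf7, a methyltransferase that acts on a core subunit, read 86.4, 87.7 and 90.5 in LPS-treated KO cells, against 110.4, 139.3 and 102.7 in untreated KO cells. In WT cells, Ndufaf7 read 76.3, 83.2 and 75.2 with LPS, against 149.8, 100.9 and 115.5 untreated. Its differences were -0.40 in KO (SE 0.14, adjusted p = 0.0353) and -0.62 in WT (adjusted p = 0.00556), and the KO call held in 7 of the 12 fits without 1 array (adjusted p up to 0.131, without untreated KO replicate 2).

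Complex III, which moves electrons from ubiquinol to cytochrome c, moved in both directions: 4 of 8 members were lower and 1 was higher in KO, and 2 of 8 were lower in WT. The WT share of 25% stands beside 18.5% of all genes and 32% of the brighter-than-median genes. With each array centred on its 75th percentile, 0 were lower and 2 higher in KO, and 1 was lower and 1 higher in WT. Of all genes, 14.9% were then called lower and 60.2% higher in KO, and 12.6% lower and 43.4% higher in WT. Uqcr10, a small subunit, read 589.3, 634.9 and 538.4 in LPS-treated KO cells, against 996.6, 844.0 and 704.0 in untreated KO cells. In WT cells, Uqcr10 read 547.1, 601.1 and 566.3 with LPS, against 704.5, 841.1 and 783.1 untreated. The treatment groups did not overlap, at -0.52 in KO (SE 0.12) and -0.44 in WT (SE 0.12). Uqcr11, another small subunit, read 1243, 1416 and 1069.7 in LPS-treated KO cells, against 1712, 2005 and 1431 in untreated KO cells. Its WT values were 1192, 1148 and 1286 with LPS and 1895, 1611 and 1979.8 untreated. The highest LPS-treated KO array came close to the lowest untreated one, and the differences were -0.46 in KO (SE 0.13, adjusted p = 0.0159) and -0.59 in WT (adjusted p = 0.00592). Without 1 array, the adjusted p of Uqcr11 in KO reached 0.0646 (LPS-treated KO replicate 3) and that of Uqcr10 in WT 0.068 (untreated WT replicate 2). Of the core proteins, Uqcrc1 was called in KO (-0.34) and Uqcrc2 in neither genotype (-0.05 in KO, -0.09 in WT).

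Uqcrfs1, the Rieske iron-sulfur protein of complex III, was called higher in KO and was named after its values were seen. It read 659.5, 591.4 and 588.1 in LPS-treated KO cells, against 505.6, 517.8 and 455.0 in untreated KO cells. In WT cells, Uqcrfs1 read 537.7, 516.7 and 623.5 with LPS, against 517.1, 447.6 and 475.0 untreated. The KO groups stood apart by 0.32 (SE 0.09, adjusted p = 0.0168), and the WT groups overlapped narrowly (0.22, adjusted p = 0.107). Without untreated KO replicate 3 its adjusted p in KO was 0.0664.

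Cytochrome c, encoded by Cycs, carries electrons between complexes III and IV and triggers caspase activation when released. Cycs read 6342, 6504 and 5911 in LPS-treated KO cells, against 4781, 5713 and 4528 in untreated KO cells. Its WT values were 5351, 5979 and 4623 with LPS and 4588, 4651 and 4101 untreated. All LPS-treated KO arrays were above the untreated ones, by 0.33 (SE 0.11, adjusted p = 0.0311), while in WT the lowest LPS-treated array lay among the untreated ones (0.25, adjusted p = 0.116). A dimmer probe set of Cycs gave 0.49 in KO and 0.31 in WT, and another, with group means under 85, gave 0.13 and 0.05. The KO call held in 8 of the 12 fits without 1 array, with an adjusted p of 0.114 without untreated KO replicate 3. With replicate number as a block within the 6 KO arrays, Cycs and Uqcrfs1 were the 2 members called higher, Ndufs4 (adjusted p = 0.0758) and Cox4i2 (0.0607) missed the threshold, and 51 members were called lower.

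Complex IV, cytochrome c oxidase, had 6 of 19 members lower and 1 higher in KO and 4 of 19 lower in WT. Those shares of 31.6% and 21.1% lower lie between the 23.8% and 18.5% of all genes and the 41.1% and 32% of the brighter-than-median genes. With 75th percentile centring the balance turned, to 0 lower and 8 higher of 19 in KO and 0 lower and 6 higher in WT. Calls over all genes turned as well, to 14.9% lower and 60.2% higher in KO and 12.6% lower and 43.4% higher in WT. By isoform, 6 of 10 broadly expressed subunits were lower in KO and 3 of 10 in WT, while 0 of 8 tissue isoforms and paralogs were lower in either. These classes also differed in brightness. Group means ran from 995.5 to 6625 for the broadly expressed subunits and from 28.78 to 451.7 for the tissue isoforms and paralogs. Isoform class and brightness therefore cannot be told apart in these counts. Cox5a, which sits on the matrix side, read 1143, 1072 and 1117 in LPS-treated KO cells, against 1480.0, 1616 and 1183 in untreated KO cells. In WT cells, Cox5a read 1236, 1146 and 1227 with LPS, against 1311, 1234 and 1099 untreated. It was apart in KO (-0.35, SE 0.11, adjusted p = 0.021, and 0.0809 without untreated KO replicate 2) and overlapping in WT (-0.01, adjusted p = 0.956). Cox7b read 5017, 5444 and 4570.0 in LPS-treated KO cells, against 5533, 5645 and 5714 in untreated KO cells. Its WT arrays read 4996, 4835 and 4443 with LPS and 6516, 5575 and 6243 untreated. The groups of this small subunit stood apart in both genotypes, and its WT difference was called (-0.36, SE 0.09, adjusted p = 0.00756), with -0.17 in KO (adjusted p = 0.118). A dimmer probe set of Cox7b gave -0.17 in KO and -0.31 in WT, neither called (adjusted p = 0.223 and 0.0529 over all probe sets).

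Among the isoform pairs, Cox4i1, the broadly expressed subunit 4, read 1243, 1397 and 1412 in LPS-treated KO cells, against 1710.0, 1713 and 1396 in untreated KO cells. In WT cells, Cox4i1 read 1503, 1449 and 1533 with LPS, against 1478, 1562 and 1518 untreated. Untreated KO replicate 3 lay within the LPS-treated range, and the difference was -0.25 in KO (SE 0.09, adjusted p = 0.0397) and -0.02 in WT. With replicate number as a block within the KO arrays, its adjusted p was 0.108. Its paralog Cox4i2, known from lung and from hypoxia, read 188.4, 175.4 and 165.3 in LPS-treated KO cells, against 145.8, 143.5 and 154.0 in untreated KO cells. In WT cells, Cox4i2 read 174.4, 187.3 and 169.4 with LPS, against 179.4, 173.0 and 153.7 untreated. Cox4i2 was called higher in KO (0.25, SE 0.08, adjusted p = 0.0232) and differed by 0.07 in WT. Neither KO call held throughout: of the 12 fits without 1 array, Cox4i1 was called in 5 and Cox4i2 in 9. The adjusted p was highest without LPS-treated KO replicate 1, at 0.133 for Cox4i1 and 0.0817 for Cox4i2.

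Cox6a1, the broadly expressed subunit 6a, read 1867, 1888 and 1758 in LPS-treated KO cells, against 2273, 2484 and 2049.8 in untreated KO cells. In WT cells, Cox6a1 read 1919.6, 1886 and 1979.5 with LPS, against 2237, 2172 and 2369 untreated. The arrays of the treatments did not overlap, with -0.30 in KO (SE 0.08, adjusted p = 0.00864) and -0.23 in WT (adjusted p = 0.0481). That WT call was made in 2 of the 12 fits without 1 array, the adjusted p reaching 0.164 without untreated WT replicate 3. Cox6a2, its heart and muscle paralog, read 268.3, 582.3 and 293.2 in LPS-treated KO cells, against 287.9, 768.7 and 298.4 in untreated KO cells. Its WT arrays read 314.2, 280.1 and 250.8 with LPS and 294.0, 298.5 and 215.8 untreated. KO replicate 2 stood apart in both treatments, and the other arrays lay between 215.8 and 314.2. On those replicate 2 arrays the summed mast cell markers were 457.8 with LPS and 732.3 untreated, and the B cell markers were 563.3 and 720.8, the lowest in their groups. Neutrophil markers, at 803.4 and 635.9, and eosinophil markers, at 331.6 and 337.6, were the highest in theirs, and the part of any of these lists was not tested.

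Cox6b1 read 2897, 2786 and 2754 in LPS-treated KO cells, against 3592, 3511 and 3312 in untreated KO cells. Its WT values were 2920.3, 3002 and 3259 with LPS and 3547, 3259 and 3545 untreated. The groups stood apart in KO (-0.30, SE 0.07, adjusted p = 0.00423) and met at the edge in WT (-0.17, adjusted p = 0.0876). Cox8a read 3163, 3119 and 2888 in LPS-treated KO cells, against 4137, 3584 and 3469 in untreated KO cells. In WT cells, Cox8a read 3129, 3043 and 3019.8 with LPS, against 3822, 3626 and 3437 untreated. Cox8a was lower in both, at -0.28 in KO (SE 0.08, adjusted p = 0.013) and -0.24 in WT (adjusted p = 0.0402), with an adjusted p of 0.0505 in KO without LPS-treated KO replicate 3 and 0.13 in WT without untreated WT replicate 1. The testis paralog Cox6b2 (0.04 in KO, 0.01 in WT), the heart paralog Cox8b (0.03, 0.12) and the testis paralog Cox8c (0.20, 0.06) were not called. On all 12 arrays Cox6b2 read 104.0 to 126.7, Cox8b 70.3 to 84.2 and Cox8c 132.6 to 175.2.

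Cox7a2, the broadly expressed subunit 7a, read 1769.8, 2017 and 1837 in LPS-treated KO cells, against 1950.0, 1914 and 1740.1 in untreated KO cells. In WT cells, Cox7a2 read 2053, 1918 and 1942 with LPS, against 1921, 1862 and 1972 untreated. Its groups overlapped in both genotypes, with log2 differences of 0.00 and 0.04. The heart paralog Cox7a1 read 169.4, 176.7 and 172.4 in LPS-treated KO cells, against 193.9, 168.1 and 189.5 in untreated KO cells. In WT cells, Cox7a1 read 214.4, 190.8 and 202.3 with LPS, against 220.7, 213.1 and 268.1 untreated, and it was not called by treatment in either genotype. Cox7a2l, which joins complexes III and IV into supercomplexes, read 374.1, 357.9 and 338.4 in LPS-treated KO cells, against 387.0, 344.3 and 403.0 in untreated KO cells. Its WT arrays read 289.2, 326.5 and 296.5 with LPS and 424.1, 347.4 and 385.6 untreated. The call was made in WT (-0.34, SE 0.09, adjusted p = 0.0159), against -0.08 in KO, and it reached an adjusted p of 0.0685 without untreated WT replicate 1. A dimmer probe set of Cox7a2l gave -0.27 in KO and -0.34 in WT, neither called. Ndufa4, first assigned to complex I and now counted with complex IV, read 1009.0, 1012.6 and 964.9 in LPS-treated KO cells, against 1285, 1246 and 1005.9 in untreated KO cells. In WT cells, Ndufa4 read 1100.9, 1015.0 and 1203 with LPS, against 1109.4, 1056 and 1140.5 untreated. Its groups overlapped in both genotypes, at -0.24 in KO (adjusted p = 0.0665) and 0.00 in WT. The HIF-induced paralog Ndufa4l2 read 104.8, 101.8 and 109.4 in LPS-treated KO cells, against 97.6, 95.3 and 93.6 in untreated KO cells. In WT cells, Ndufa4l2 read 95.1, 104.2 and 105.0 with LPS, against 104.0, 94.0 and 93.3 untreated. It was not called in either, at 0.14 and 0.06.

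Complex V, the ATP synthase, had 11 of 17 members lower in KO and 9 of 17 in WT, and 0 higher in either, at medians of -0.34 and -0.29. The c-ring, the rotor in the membrane, is built from 1 mature protein encoded by 3 genes. Atp5g2 read 2545, 3002 and 2459 in LPS-treated KO cells, against 4776, 4527 and 4129.9 in untreated KO cells. In WT cells, Atp5g2 read 2574, 2350.1 and 2536 with LPS, against 4056, 4078 and 4035 untreated. Groups were far apart in both, at -0.75 in KO (SE 0.09, adjusted p = 3.62e-05) and -0.71 in WT (SE 0.09, adjusted p = 8.65e-05), and the other probe sets gave -0.68 and -0.75 in KO. Atp5g1 read 1455, 1556 and 1443 in LPS-treated KO cells, against 1969.4, 2022 and 2296 in untreated KO cells. Its WT values were 1676, 1414 and 1834 with LPS and 2864, 2224 and 2778 untreated. The difference was -0.49 in KO (SE 0.12) and -0.68 in WT (SE 0.12), without overlap, and the other probe set gave -0.51 and -0.66. Atp5g3 read 2033, 2039.6 and 2091 in LPS-treated KO cells, against 2574, 2565 and 2249 in untreated KO cells. In WT cells, Atp5g3 read 2227, 2030.2 and 2352 with LPS, against 2574, 2169 and 2134 untreated. Called in KO alone (-0.26, SE 0.09, adjusted p = 0.0366), it differed by -0.05 in WT with overlapping arrays, and its adjusted p in KO was 0.105 without untreated KO replicate 1 and 0.0562 with the replicate block within the KO arrays.

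The catalytic F1 head had 2 of 5 members lower in KO and 3 of 5 in WT. Its 40% in KO is near the 41.1% of the brighter-than-median genes, and its 60% in WT stands beside their 32%. Atp5d, the delta subunit, differed by -0.49 in KO and -0.40 in WT, and Atp5a1, the alpha subunit, by -0.40 and -0.36. Atp5b, which holds the catalytic sites, was not called in either (-0.15 in KO, -0.02 in WT). Stalk and membrane subunits were lower for 6 of 9 in KO and 4 of 9 in WT, led in KO by Atp5h (-0.42), a stator subunit, and Atp5o (-0.41), which links stator and head.

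**Figure D3:**
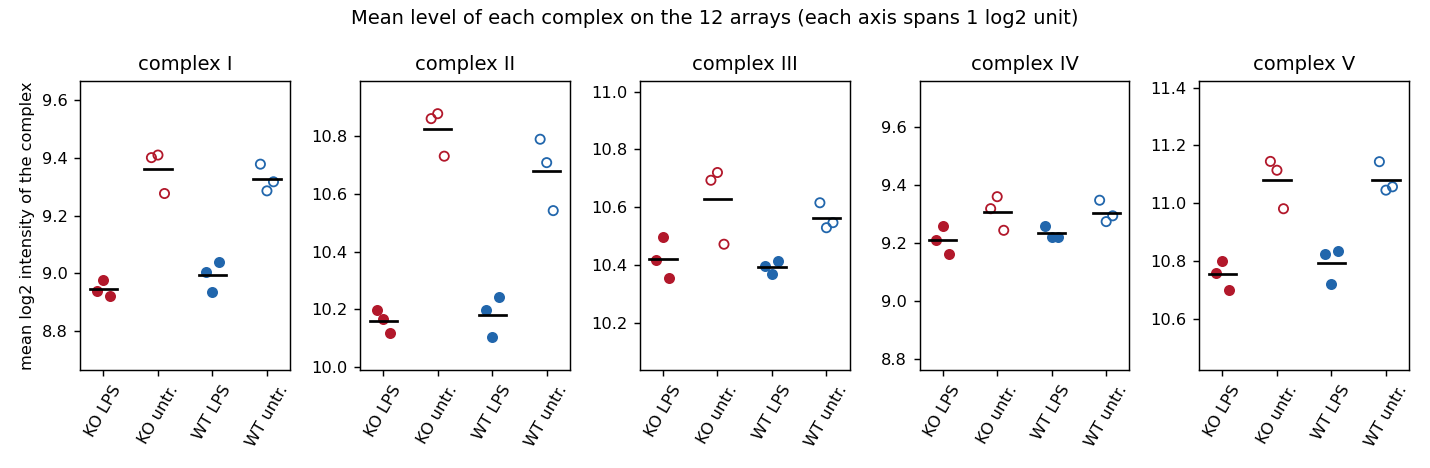
Mean log2 intensity of the members of each complex on each array, filled for LPS and open for untreated, with bars at the group mean, each axis spanning 1 log2 unit. In complexes I, II and V the 3 LPS-treated arrays lie below the 3 untreated arrays in both genotypes, and untreated KO replicate 3 is the lowest untreated KO array in all 5 panels.

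Untreated KO replicate 3 was nearer to the treated arrays than the other untreated KO arrays were. As the median deviation of the 90 members from each gene's mean over the arrays, LPS-treated KO arrays lay at -0.18, -0.14 and -0.20, against 0.22, 0.20 and 0.05 for untreated KO arrays. LPS-treated WT arrays lay at -0.10, -0.16 and -0.09, against 0.17, 0.09 and 0.09 for untreated WT arrays. The summed mast cell markers of untreated KO replicate 3, at 2345, were the highest of all arrays, and their part was not tested. Without untreated KO replicate 3 the median KO response was -0.38. A call was present in each of the 12 fits without 1 array for 40 of the 60 members called in KO and for 27 of the 43 called in WT.

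The number of calls depended on how arrays were scaled. The 75th percentile of the tested genes was 414.0 to 470.7 on LPS-treated arrays and 489.8 to 537.1 on untreated ones. Centring each array on that percentile moved the median difference of all genes to 0.35 in KO and 0.23 in WT, and then 60.2% and 43.4% of all genes were called higher and 14.9% and 12.6% lower. Under that centring 17 members were called lower and 13 higher in KO, and 20 lower and 9 higher in WT, with member medians of -0.03 and -0.06. Relative to the median of all genes, the members' median was -0.38 in KO and -0.29 in WT, and relative to the brighter-than-median genes it was -0.14 in both. Centring cannot alter these differences, since it adds 1 constant per array. After quantile normalization they were -0.32 and -0.21 relative to all genes and -0.27 and -0.20 relative to the brighter-than-median ones. With 75th percentile centring the medians of complex III (0.01 in KO, 0.06 in WT) and complex IV (0.19, 0.18) turned above 0, while those of complex I (-0.14, -0.18), complex II (-0.37, -0.29) and complex V (-0.06, -0.10) stayed below it. Calls to the lower side then numbered 13 of 41 in each genotype for complex I, 3 of 4 in each for complex II, and 1 of 17 in KO and 3 of 17 in WT for complex V. Of the 56 members called lower in KO, 6 turned above 0 there and 0 of the 6 were called higher: Atp5g3, Atp5j, Cox4i1, Cox5b, Ndufaf6 and Uqcrh.

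A call to the lower side under all 4 scalings and in both genotypes was made for 14 members. In complex I these were Ndufs3, Ndufs7, Ndufs8, Ndufv2, Ndufv3, Ndufa8, Ndufa10, Ndufb5, Ndufb9 and Ndufb11. Complex II gave Sdha, Sdhb and Sdhd, and complex V gave Atp5g2. The share of all tested genes called lower under all 4 scalings and in both genotypes was not counted. With 75th percentile centring alone, 14.9% of all genes were called lower in KO and 12.6% in WT. Whether the 14 members exceed the share of all genes was therefore not tested. On the higher side, Uqcrfs1 and Cox4i2 were called under all 4 scalings in KO.

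**Figure D4:**
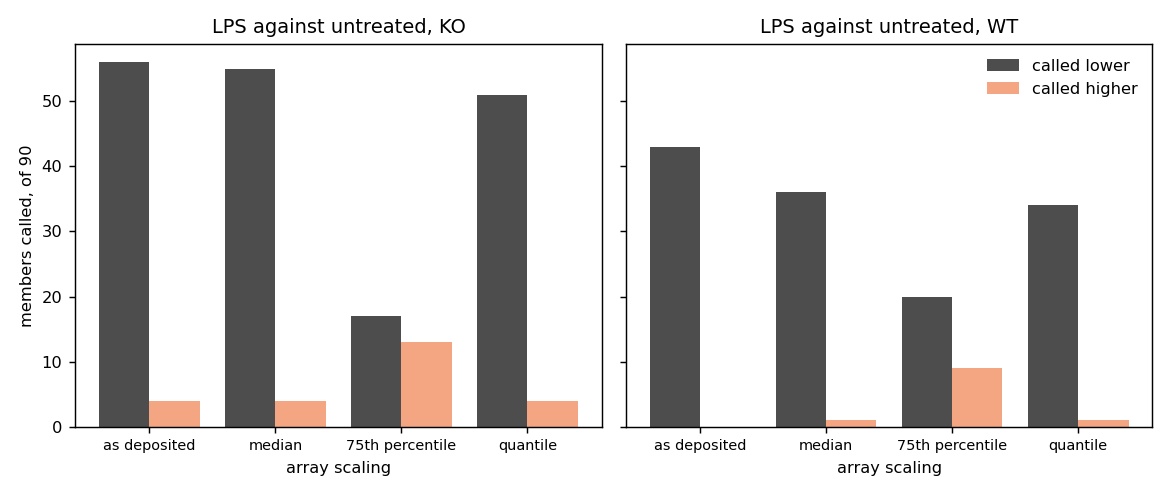
Number of the 90 members called lower (dark) and higher (light) with LPS under 4 array scalings, KO on the left and WT on the right. As deposited, median-centred and quantile-normalized values gave 51 to 56 members lower in KO and 34 to 43 in WT, while 75th percentile centring gave 17 and 20.

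No member was called between the genotypes. With LPS, 0 of 90 members were called between KO and WT cells, although 4.87% of all tested genes were called lower and 3.28% higher in KO. At an unadjusted p under 0.05 there were 9 members, the lowest adjusted p was 0.0957, and differences ran from -0.30 to 0.35 with a median of -0.03. Ndufaf5 (-0.24), Ndufaf4 (-0.24), Ndufab1 (-0.22) and Ndufa12 (0.24) had the lowest p, and are named after their values were seen. The 95% intervals of 88 members lay within ± 0.5, the exceptions being Cox6a2 and Ndufaf1.

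Without LPS, 0 of 90 members were called, against 0.0351% of all genes called higher and 0.0401% lower. There were 4 members at an unadjusted p under 0.05, and the differences had a median of 0.03 and a range of -0.34 to 0.60. The 95% intervals of 85 members lay within ± 0.5, with Atp5g1, Cox6a2, Cox7a1, Ndufaf3 and Sdhb outside. Sdhb had the lowest p, with KO arrays above WT arrays in both treatments, by 0.40 untreated (SE 0.09, adjusted p = 0.199) and 0.15 with LPS (adjusted p = 0.393). Cox7a1 lay lower in KO in both, at 169.4 to 176.7 in LPS-treated KO and 190.8 to 214.4 in LPS-treated WT cells, by -0.23 with LPS (adjusted p = 0.181) and -0.34 untreated (adjusted p = 0.309).

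**Figure D5:**
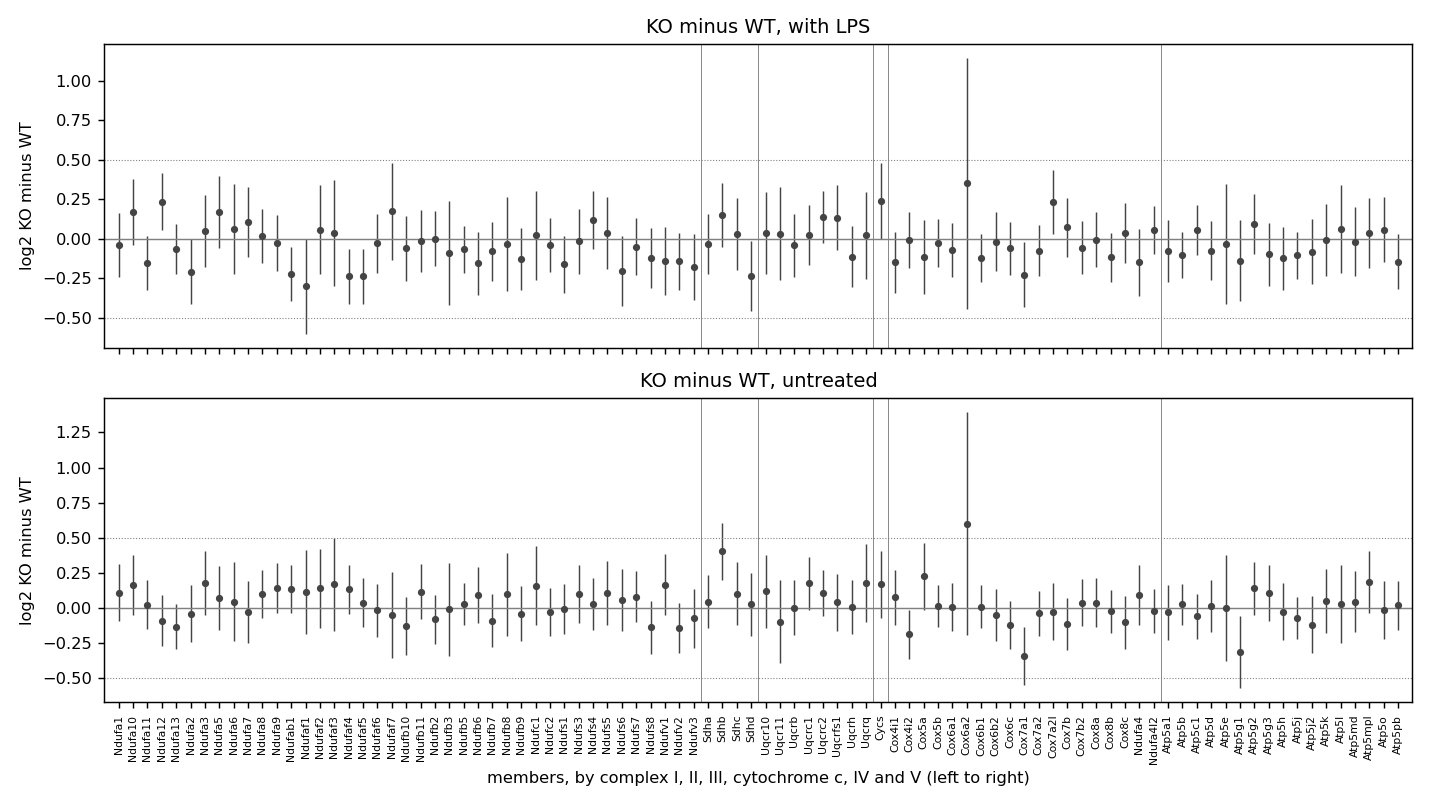
Log2 difference KO minus WT of each member with its 95% interval from the limma fit, with LPS above and untreated below, members ordered by complex and dotted lines at ± 0.5. No member was called in either panel, and Cox6a2 has the widest interval, from -0.44 to 1.15 with LPS.

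The LPS response of KO cells minus that of WT cells, the interaction, was called for 0 of 90 members, against 0.301% of all genes called higher and 0.446% lower. At an unadjusted p under 0.05 there were 5 members, and the lowest adjusted p was 0.174, for Ndufaf4 (-0.37). The median was -0.07, and 60 of the 90 differences were below 0. The 95% intervals of 67 members lay within ± 0.5 and those of 89 within ± 1. With no interaction called by limma, the different numbers of KO and WT calls are not shown to be a difference between genotypes.

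Other mitochondrial genes were counted in the same fit, and 0 of them were called between untreated KO and WT cells or in the interaction. Their counts with LPS stand beside 23.8% of all genes called lower and 21.9% higher in KO, and 18.5% lower and 9.53% higher in WT. After 75th percentile centring these shares of all genes were 14.9% lower and 60.2% higher in KO, and 12.6% lower and 43.4% higher in WT. Of 31 assembly factors outside the members, 20 were lower and 1 higher in KO, and 16 lower and 2 higher in WT, with 16 lower and 7 higher in KO and 14 lower and 4 higher in WT after 75th percentile centring. Among them Tmem126b, an assembly partner of Ndufaf1, differed by -1.83 in KO and -1.34 in WT. Bcs1l, which inserts the Rieske protein into complex III, differed by -1.49 and -1.52, and Sdhaf1, which serves Sdhb, by -1.38 and -1.19. Between KO and WT cells with LPS, 4 of the 31 were lower, such as Ttc19 (-0.65, SE 0.17, adjusted p = 0.0405), Tmem126b (-0.51, adjusted p = 0.0259) and Atpaf2 (-0.48, adjusted p = 0.0139). That is 12.9%, against 4.87% of all genes and 9.03% of the brighter-than-median genes called lower there. Atpaf2, an assembly factor of the F1 head, averaged 184.3 (167.2 to 202.0) in LPS-treated KO cells, against 257.6 (237.1 to 286.6) in LPS-treated WT cells.

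Regulators of mitochondrial biogenesis moved both ways, with 4 of 19 higher and 7 lower in KO, a share higher close to that of all genes, and 5 higher and 7 lower in WT. With 75th percentile centring the balance turned, to 10 higher and 6 lower in KO and 9 higher and 3 lower in WT. Gabpb1, the GABP partner subunit, differed by 1.56 in KO and 0.99 in WT, and the coactivator Ppargc1b by -1.55 and -1.20. Gabpa (0.43, 0.35) and Nrf1 (0.31, 0.26) were called higher in both and are named here because their factors' cores were searched. The cores of Yy1 and Esrra were searched too. Yy1 was the median gene of this list in KO, at -0.08 as deposited. With 75th percentile centring Yy1 (0.20 in KO, 0.29 in WT) and Esrra (0.35, 0.56) were called higher in both. So were 60.2% of all genes in KO and 43.4% in WT. With LPS, Tfam, which packages mitochondrial DNA, was higher in KO than in WT at 123.7 (112.7 to 134.7) against 86.99 (81.91 to 93.09), by 0.51 (SE 0.11, adjusted p = 0.0138). Gabpb1 was higher as well (0.45), and Tfb2m, a mitochondrial transcription factor, was lower (-0.67), among 2 regulators higher and 3 lower in KO than in WT. The 3 lower are 15.8% of the 19, against 4.87% of all genes and 9.03% of the brighter-than-median genes. Of all genes, 3.28% were called higher in that comparison.

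Of 25 genes of the TCA cycle and pyruvate dehydrogenase, 15 were lower and 2 higher in KO, and 11 lower and 3 higher in WT, or 8 lower and 4 higher in each after 75th percentile centring. Pdk2, a kinase that inhibits pyruvate dehydrogenase, differed by -2.95 in KO and -2.40 in WT, and Idh2 by -0.96 and -1.06. Among 16 genes of other electron entry routes and uncoupling, 4 were lower and 4 higher in KO, and 4 lower and 2 higher in WT. The 25% called lower in each genotype is near the shares of all genes, and 75th percentile centring gave 4 lower and 6 higher in KO and 2 lower and 5 higher in WT. Gpd2, which feeds electrons from glycerol 3-phosphate to ubiquinone, was higher in both (1.11, 1.12), and the ATP/ADP carrier gene Slc25a4 was lower (-0.85, -0.58).

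Antioxidant genes, not all of them particular to mitochondria (such as Sod1 and Gpx1), were lower for 7 of 8 in KO and 6 of 8 in WT. The 1 higher in each was Sod2 (0.42, 0.47), named after its values were seen. Gpx1 differed by -0.85 in KO and -1.39 in WT, and with LPS it was higher in KO than in WT (0.61, SE 0.14, adjusted p = 0.0199). Mitochondrial ribosomal proteins were lower for 51 of 77 and higher for 3 in KO, and lower for 31 and higher for 4 in WT, led by Mrpl42 (-1.50, -1.51). After 75th percentile centring 27 were lower and 17 higher in KO, and 13 lower and 11 higher in WT. Of 25 protein import genes, 12 were lower and 1 higher in KO, and 7 lower and 1 higher in WT, with Timm21 at -1.29 and -0.91, and centring gave 5 lower and 6 higher in KO and 3 lower and 2 higher in WT. Between KO and WT cells with LPS, 1 of 77 ribosomal genes was higher (Mrpl13, 0.55) and 4 were lower, led by Mrpl34 (-0.62), while 1 import gene (Timm22, -0.39) and 1 TCA or pyruvate dehydrogenase gene (Pdp2, -0.39) were lower. The 5.19% of ribosomal genes and 4% of import genes called lower are near the 4.87% of all genes. With 75th percentile centring, the median of the regulators in KO (0.20), of the electron entry list in both (0.17 in KO, 0.16 in WT) and of the import list in WT (0.03) turned above 0, while those of the assembly, TCA, antioxidant and ribosomal lists stayed below it. The mitochondrially encoded subunits COX2 and ND3, the 2 measured, were not called in any comparison, with LPS differences for COX2 of -0.01 in KO and -0.08 in WT and for ND3 of 0.01 in both. COX2 was called higher in KO (0.27) after 75th percentile centring.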

How the data were processed

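Transcripts were measured on 12 one-colour Affymetrix whole-transcript arrays. The values used are deposited linear intensities, 1 per probe set. The authors made them by RMA with Expression Console 1.1, as listed in the submitters' processing notes, with settings not given in the sources used here. Intensities ran from 6.96 to 22642 and array medians from 110.4 to 118.7. In GEO's platform annotation, 21789 of 35556 probe sets had 1 gene symbol, 1621 had several and 12146 had none, and only the first kind was used. For the 999 genes with several probe sets the brightest was kept, and all 90 members were found in a RefSeq gene table.

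Log2 intensity without a pseudocount was fitted with limma 3.58.1 under R 4.3.3 (two-sided, 4 group means, 12 arrays, 8 residual degrees of freedom). Benjamini-Hochberg adjustment ran over 19938 genes, with calls under 0.05. The procedure was tested on simulated data, and precision is limited by the number of arrays. There, changes of 0.5 or 1 log2 were added to LPS-treated KO arrays for some brighter-than-median genes. Between KO and WT with LPS, 41% of the 0.5 changes and 86% of the 1 log2 changes were called, as were 6 unchanged genes. No arrays were identical, and those of 1 group correlated at 0.982 to 0.996.

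Titles number the replicates. Same-numbered KO arrays with and without LPS deviated together (r = 0.322, 0.568 and 0.459), so a replicate block within the 6 KO arrays was added after seeing the data. WT pairs gave -0.07, 0.143 and 0.359, and no pairing was taken there or between genotypes. The alternatives were median, 75th percentile and quantile scaling, removal of dim genes, a trended robust fit, replicate blocks, the mean of all probe sets, fits on 6 arrays, and omission of each array.

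Array values are printed for complex II, Cycs, the 2 called members with the largest difference per comparison and complex (also among complex I assembly factors), and the isoform families, with exceptions stated. From each other list up to 3 called genes per comparison could be named. Members, lists and tests were chosen with earlier results of these data known.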

Additional observations from a re-analysis of the deposited data

How the results depend on the processing

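The lower calls with LPS kept their count within 1.5 times under each alternative except 75th percentile centring, which gave 17 in KO and 20 in WT. Without 1 array, members called lower numbered 42 to 61 in KO and 29 to 45 in WT. Members called higher in KO numbered 13 with 75th percentile centring, 2 in the fit on 6 arrays, 2 with the replicate block within the 6 KO arrays and 1 to 4 without 1 array. Members called higher in WT numbered 1 after median centring, 9 after 75th percentile centring, 1 after quantile normalization, 1 with the replicate block (Cycs, adjusted p = 0.0288) and 0 to 1 without 1 array. The median response was -0.0344 in KO and -0.0606 in WT with 75th percentile centring and -0.1857 in WT with quantile normalization. Without 1 array it was -0.382 to -0.2829 in KO and -0.2772 to -0.2389 in WT.

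Between KO and WT with LPS, the members' median was 0.0444 with 75th percentile centring and -0.0751 to -0.0058 without 1 array, and 1 member was called lower without LPS-treated KO replicate 1, against 0 without any other array. The median interaction turned to 0.0111 with 75th percentile centring and was -0.1073 to -0.0256 without 1 array. Of the members called lower in KO, 6 turned above 0 with that centring, among them Atp5g3 at 0.018 (adjusted p = 0.848) and Cox4i1 at 0.0308 (adjusted p = 0.793); counting uncalled members too, 27 turned in KO and 23 in WT. It adds 1 constant per array, which shifts all genes alike; why LPS-treated arrays have lower 75th percentiles was not tested. Over the named members, 3051 of 3300 alternative values kept direction and side of the threshold, 102 lost and 23 gained a call, and 124 changed sign, of which 122 were not called to begin with. With replicate number as a block over all 12 arrays, 58 of 60 KO calls and 41 of 43 WT calls were kept; Ndufs4 (adjusted p = 0.0538) and Cox4i1 (0.0554) lost theirs in KO. Signal over background is not known for these arrays, so how far dim members such as Cox8b and Ndufaf6 lie above it was not tested.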

Other observations

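Probe sets annotated to more than 1 symbol were outside the members, and some read further complex subunits. Those shared by Ndufb4 and Ndufb4b, accessory subunits of complex I, were lower with LPS in KO (-0.67 and -0.66) and in WT (-0.61 and -0.58), with adjusted p between 0.00117 and 0.00402 over all probe sets. The probe set shared by Ndufs5 and Ndufs5-ps was lower in KO (-0.39, adjusted p = 0.0146), with -0.25 in WT (adjusted p = 0.123). The 3 probe sets shared by Cox7c and Gm12338 were not called in either genotype, at -0.10 to -0.08 in KO and -0.14 to -0.13 in WT.

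For some members the brightest probe set and the others gave different calls. The dimmest Atp5h probe set gave -0.24 in KO (adjusted p = 0.134) where the brightest gave -0.42, and the dimmer Ndufa11 probe set gave -0.19 (adjusted p = 0.185) where the brightest gave -0.31. Whether such probe sets also read processed pseudogenes was not tested.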
